A study of Mus musculus with 7 samples.

Results

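The 92 genes described here lie within 1 Mb of *Neat1* on mouse chromosome 19 and are expressed in the cervical spinal cord. They were drawn from 150 genes, *Neat1* not counted, whose annotated body overlaps chr19:4824708-6845478 of GRCm38 in GENCODE M21, and from the 55487 genes of the count table. A gene was kept when it reached 1 CPM (its count scaled to the total of the library) in at least 3 of the 7 libraries, a rule that uses position and level only, although it was set with earlier results of these data known. All 92 had enough counts for the test of all genes, 87 of them reached 1 CPM in all 7 libraries, and 0 passed through libraries of a single genotype. Of the 58 genes left out, 27 had no read in any library. Just inside the limit were *Gm14966* and *Rin1*, which reached 1 CPM in 3 libraries with values of 0.73 to 1.75 and 0.712 to 1.06 CPM, and just outside were *AC125059.1* and *Gm14965*, which did so in 2 libraries with values of 0.448 to 1.35 and 0.356 to 1.03 CPM.

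The mice were 4 *Neat1*-KO; hSOD1G93A and 3 *Neat1*-WT; hSOD1G93A animals at 8 weeks of age, called *Neat1*-KO and *Neat1*-WT below. Every animal, controls included, carried the human *SOD1* transgene with the G93A mutation of familial ALS, which is kept hemizygous. The genotypes came from crosses of *Neat1*+/-; hSOD1G93A males with *Neat1*+/- females, and the labels give no sex. *Xist*, used here as an index of sex, was at most 0.161 CPM in every library, with 0 libraries of either genotype over 5 CPM. How the *Neat1* allele was made is not given in the sources used here. Sequence close to an allele is as a rule inherited along with it. How far such a stretch reaches in these mice was not measured, and effects of losing *Neat1* and of other sequence differences linked to the allele cannot be told apart here. In whole cord tissue, fewer cells of a type and less RNA per cell cannot be told apart either.

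*Neat1* encodes a long non-coding RNA that builds paraspeckles, nuclear bodies that hold RNA-binding proteins. Its neighbour *Malat1* encodes another abundant nuclear RNA, found in nuclear speckles. The region around them is dense in genes, many of which start close to one another or overlap on opposite strands, and 52 of the 92 members share exon bases with a gene on the other strand.

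Total counts ranged from 19661878 to 26031517 per library. *Neat1* itself was at 5.09, 5.40, 5.52 and 4.04 CPM across the 4 *Neat1*-KO mice (replicates 1 to 4), compared with 86.2, 80.5 and 118 CPM across the 3 *Neat1*-WT mice (replicates 2 to 4), a log2 fold change of -4.25 ± 0.150 (SE) with an adjusted p of 1.516e-08 in edgeR's quasi-likelihood test. CPM values here and below are scaled by TMM factors. Hox genes of the cervical level summed to 149 to 194 CPM and those of the lumbar level to at most 2.47 CPM, and the markers of neurons, astrocytes, oligodendrocytes and microglia were present in every library. The 6 motor neuron markers summed to 278 to 338 CPM in *Neat1*-KO and 360 to 428 CPM in *Neat1*-WT libraries, which do not overlap, and 3 of the 6 were at an unadjusted p under 0.05. No motor neuron marker was called and none of them was at 0. Their median log2 fold change was -0.25. Sums of every other list overlapped between the genotypes, but some medians were as far from 0. The sensory ganglion list had -0.38 (3 of 5 markers tested, 36.0 to 48.9 against 45.4 to 73.8 CPM) and the meninges list 0.27. In each, 1 marker was at an unadjusted p under 0.05. Medians of the remaining lists lay between -0.2 (blood) and 0.11 (lumbar Hox). The part of these differences in the members' values was not tested.

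One member, *Frmd8os*, passed the threshold used here, an adjusted p under 0.1 with an absolute log2 fold change over 0.58, where 0.0325% of the 18449 tested genes did. At an unadjusted p under 0.05 there were 14 of the 92 members, or 15.2%, against 4.64% of all tested genes. Of these, 8 were higher in *Neat1*-KO (2.24% of all genes) and 6 lower (2.4%). The 2 genotypes had separate library values, with no overlap, for 14 members, 8 higher and 6 lower, against 5.47% of all genes (2.91% higher, 2.57% lower). Both criteria were met by 11 members. The other members without overlap were *Bbs1*, *Mus81* and *Gm14964*, named after their values were seen, and the other members at an unadjusted p under 0.05 were *Dpp3*, *Ehd1* and *AC125059.3*. Leaving out *Neat1*-KO replicate 3 raised the count at an unadjusted p under 0.05 to 24 members, 19 of them higher, where 7.78% of all genes were (3.55% higher), and the count without overlap to 33 (14.4% of all genes). Leaving out *Neat1*-WT replicate 4 gave 23 members without overlap (13.2% of all genes).

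The members' differences were mostly small. Their log2 fold changes ran from -0.77 to 1.61, with 15 of the 92 members beyond 0.25 in either direction, or 16.3%, against 17.1% of all tested genes, and the median was 0.086 against 0.006 over all tested genes. The log2 fold change was above 0 in 66 of the 92 members, or 71.7%, against 51.8% of all genes.

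**Figure D1:**
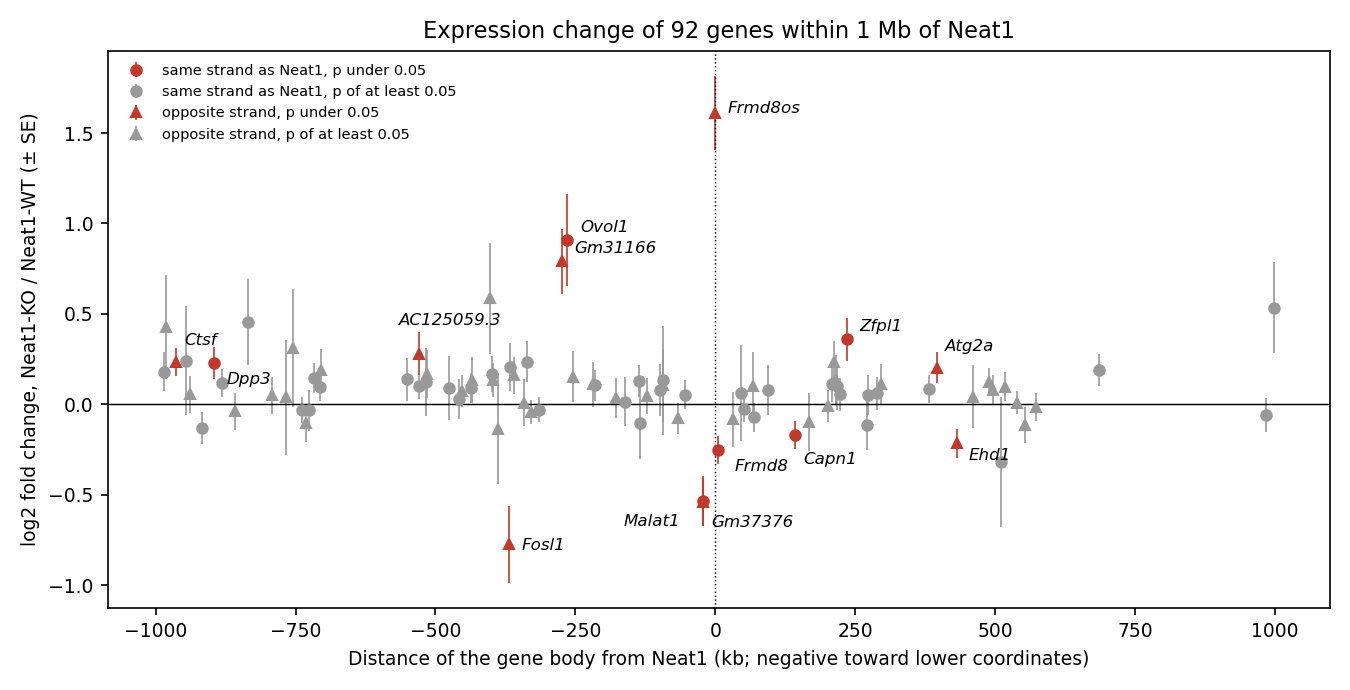
Log2 fold change (*Neat1*-KO over *Neat1*-WT, ± SE) of each of the 92 members against the distance of its body from *Neat1* in kb, with circles for the strand of *Neat1*, triangles for the opposite strand, and red for an unadjusted p under 0.05. *Frmd8os* at 1.61 stands next to *Neat1*, *Malat1* and *Gm37376* lie together at -0.54, and most grey points lie between -0.25 and 0.25.

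*Frmd8os* is the gene nearest to *Neat1*. It is an antisense RNA gene (chr19:5845623-5851388, plus strand, 612 bases of exon) whose start is 144 bp beyond the 5' end of *Neat1* (chr19:5824708-5845478, minus strand), so that both are transcribed away from a shared stretch between them. *Frmd8os* was at 7.35, 6.33, 10.1 and 6.90 CPM across the 4 *Neat1*-KO mice (replicates 1 to 4), compared with 2.81, 2.15 and 2.55 CPM across the 3 *Neat1*-WT mice (replicates 2 to 4). Every *Neat1*-KO library was above every *Neat1*-WT library, with replicate 3 the highest. The means were 7.66 ± 1.66 (SD, n = 4) and 2.50 ± 0.332 CPM (SD, n = 3), a ratio of 3.06. *Frmd8os* rose by 1.61 ± 0.204 (SE) on the log2 scale, with an adjusted p of 0.0146 in edgeR's quasi-likelihood test. The exact two-sided permutation p over all 35 ways to choose 4 of the 7 libraries was 0.0286, the smallest it can give. Over the 15 alternatives its log2 fold change was between 1.45 and 1.70 and its adjusted p between 1.562e-11 and 0.184, the latter from edgeR without *Neat1*-WT replicate 3.

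*Frmd8*, which encodes a FERM domain protein that binds iRhom and keeps the ADAM17 sheddase complex at the cell surface, lies 4.2 kb from *Neat1* on the same strand and overlaps *Frmd8os* on the other strand over 388 bases of exon. It was at 82.0, 87.0, 76.1 and 77.2 CPM across the 4 *Neat1*-KO mice (replicates 1 to 4), compared with 91.3, 96.0 and 101 CPM across the 3 *Neat1*-WT mice (replicates 2 to 4). All *Neat1*-KO libraries were below all *Neat1*-WT libraries, the opposite order to *Frmd8os*. The log2 fold change was -0.25 ± 0.076 (SE), with an adjusted p of 0.840 in edgeR's quasi-likelihood test and an exact permutation p of 0.0571. The counting kept strands apart: of 239 genes lying wholly in exons of a gene on the same strand, 239 had no count, while 110 of 250 genes lying wholly in exons of the opposite strand, or 44.0%, had at least 100 counts over the 7 libraries.

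The next genes on that side did not differ beyond the spread of the libraries. *Slc25a45*, a mitochondrial carrier, was at 5.29 to 5.75 CPM in *Neat1*-KO and 5.02 to 6.32 CPM in *Neat1*-WT libraries, and *Tigd3*, which derives from a transposase, at 1.39 to 2.33 and 1.43 to 2.33 CPM. Their log2 fold changes were -0.08 ± 0.151 and 0.06 ± 0.265 (SE).

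*Malat1* (chr19:5795690-5802672, minus strand) lies 22035 bp from the 3' end of *Neat1*. It was at 136, 169, 224 and 202 CPM across the 4 *Neat1*-KO mice (replicates 1 to 4), compared with 284, 233 and 278 CPM across the 3 *Neat1*-WT mice (replicates 2 to 4). All *Neat1*-KO libraries were below all *Neat1*-WT libraries, and the nearest pair, *Neat1*-KO replicate 3 and *Neat1*-WT replicate 3, lay close together. The libraries were made from poly(A) RNA. How fully and evenly they capture *Malat1* and *Neat1* was not measured. The means were 183 ± 38.8 (SD, n = 4) and 265 ± 27.8 CPM (SD, n = 3). On the log2 scale this was -0.54 ± 0.138 (SE), inside the limit of 0.58, with an adjusted p of 0.704 in edgeR's quasi-likelihood test and an exact permutation p of 0.0571. Over the 15 alternatives the log2 fold change ran from -0.65 to -0.29, the latter with *Xist* as a covariate. The adjusted p ran from 6.5e-08 to 1.0. It was 0.0439 in DESeq2 and lowest in edgeR without a filter on low counts.

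*Gm37376*, an unspliced transcript of unknown coding status, lies wholly inside the exon of *Malat1* on the opposite strand (453 bases). It was at 16.4, 19.3, 24.2 and 21.7 CPM across the 4 *Neat1*-KO mice (replicates 1 to 4), compared with 32.0, 24.98 and 32.1 CPM across the 3 *Neat1*-WT mice (replicates 2 to 4), and its log2 fold change was -0.54 ± 0.133 (SE). The libraries were in nearly the same order as for *Malat1*. In each library its CPM was between 10.71% and 12.12% of that of *Malat1*, which has 6983 bases of exon. Per kb of exon, *Gm37376* was at 53.8 and *Malat1* at 31.2 CPM over the mean of all 7 libraries. Reads of *Malat1* assigned to the wrong strand and a transcript of its own that follows *Malat1* were not tested apart. A further member on this side, *Ltbp3*, a binding protein of latent TGF-beta, had a log2 fold change of -0.08 ± 0.085 (SE), with libraries that overlap.

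**Figure D2:**
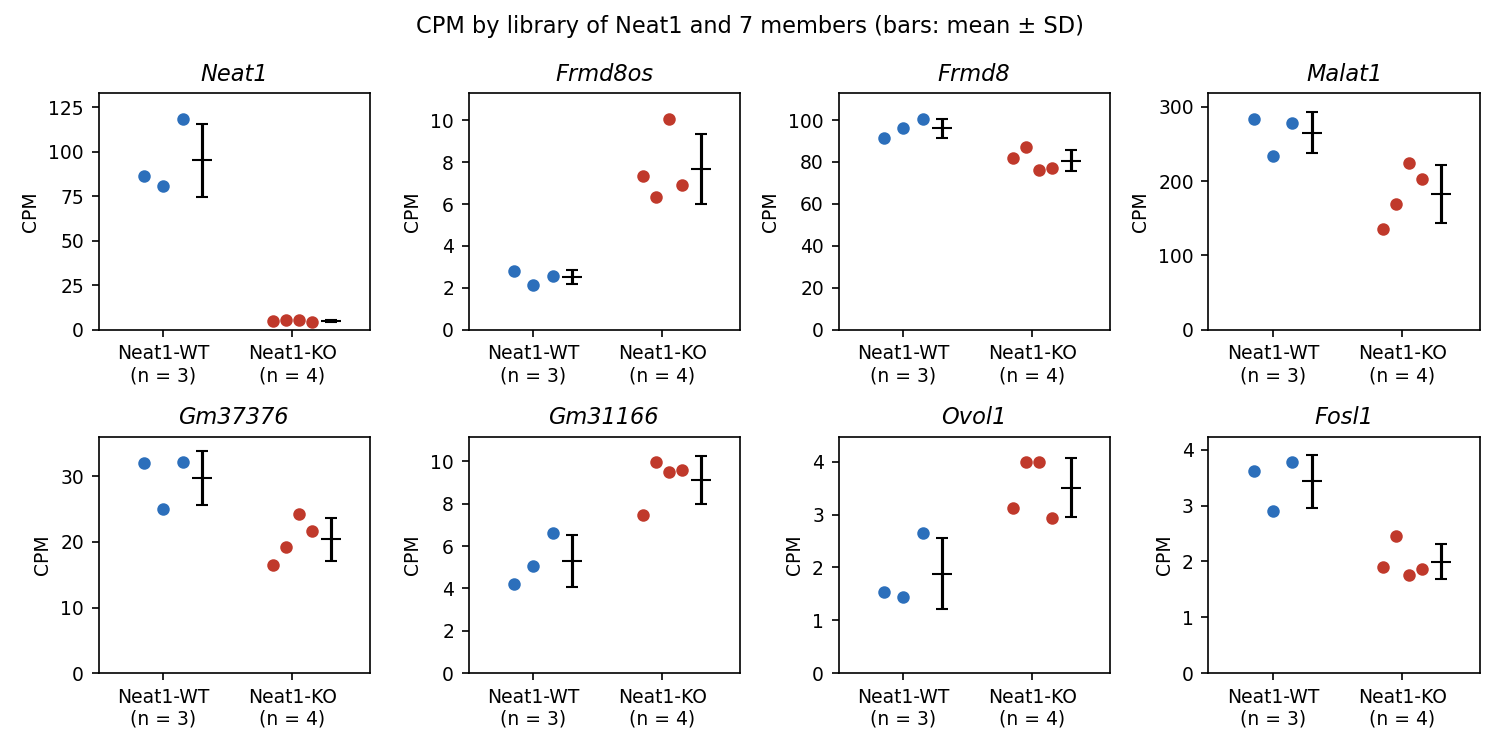
CPM of *Neat1* and 7 members in each library, with *Neat1*-WT in blue (n = 3), *Neat1*-KO in red (n = 4) and the mean ± SD in black, each axis starting at 0. The genotypes do not overlap in any of the 8 panels, with *Frmd8os*, *Gm31166* and *Ovol1* higher and *Neat1*, *Frmd8*, *Malat1*, *Gm37376* and *Fosl1* lower in *Neat1*-KO.

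*Ovol1*, a zinc finger repressor known from epithelial and germ cells, and *Gm31166*, a transcribed pseudogene, lie 264.1 and 274.3 kb from *Neat1* toward lower coordinates and share 690 bases of exon on opposite strands. *Gm31166* was at 7.45, 9.96, 9.51 and 9.57 CPM across the 4 *Neat1*-KO mice (replicates 1 to 4), compared with 4.21, 5.04 and 6.63 CPM across the 3 *Neat1*-WT mice (replicates 2 to 4). *Ovol1* was at 3.13, 3.99, 3.99 and 2.94 CPM and at 1.54, 1.45 and 2.65 CPM in the same order. In both genes every *Neat1*-KO library was above every *Neat1*-WT library, and *Neat1*-WT replicate 4 was the highest of its genotype. The log2 fold changes were 0.79 ± 0.178 and 0.91 ± 0.255 (SE), beyond the limit of 0.58, but the adjusted p was 0.485 and 0.756 in edgeR's quasi-likelihood test. DESeq2 called *Gm31166* at an adjusted p of 0.0248, and edgeR without a filter on low counts called *Gm31166* at 0.00232 and *Ovol1* at 0.0711, within ranges up to 1.0 over the 15 alternatives for both. These settings also called more genes in all, 27 of 18449 in DESeq2 and 124 of 30996 without the filter, against 6 of 18449. The exact permutation p was 0.0286 for both genes.

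*Fosl1*, a subunit of the AP-1 transcription factor, lies 368.8 kb from *Neat1* and was at 1.901, 2.46, 1.76 and 1.87 CPM across the 4 *Neat1*-KO mice (replicates 1 to 4), compared with 3.62, 2.90 and 3.77 CPM across the 3 *Neat1*-WT mice (replicates 2 to 4). The groups did not overlap. Its log2 fold change was -0.77 ± 0.212 (SE), with an adjusted p of 0.733 in edgeR's quasi-likelihood test and an exact permutation p of 0.0286. *Ccdc85b*, which shares 1163 bases of exon with it on the opposite strand, had a log2 fold change of 0.20 ± 0.133 (SE), and its libraries overlapped. The antisense gene *AC125059.3*, which overlaps *Sf3b2* over 194 bases, was at 13.5 to 16.1 CPM in *Neat1*-KO and 11.1 to 14.1 CPM in *Neat1*-WT libraries, with log2 fold changes of 0.28 ± 0.119 for it and 0.10 ± 0.072 (SE) for *Sf3b2*.

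The list of autophagy, endosome and Golgi traffic is the longest, with 17 members. None of them passed the threshold, 3 were at an unadjusted p under 0.05, 13 had a log2 fold change above 0, and the median was 0.06. Of all tested genes, 4.64% were at that p and 51.8% were above 0, shares that apply to each list below. *Zfpl1*, a zinc finger protein of the cis-Golgi, was at 13.9, 13.2, 11.2 and 13.8 CPM across the 4 *Neat1*-KO mice (replicates 1 to 4), compared with 10.5, 10.1 and 9.79 CPM across the 3 *Neat1*-WT mice (replicates 2 to 4). *Atg2a*, which transfers lipids to the growing autophagosome, was at 57.2, 67.3, 55.1 and 57.6 CPM and at 52.8, 51.8 and 50.1 CPM in the same order. In both, every *Neat1*-KO library was above every *Neat1*-WT library, with *Neat1*-KO replicate 3 the lowest of its genotype. Their log2 fold changes were 0.36 ± 0.119 and 0.20 ± 0.086 (SE), with adjusted p of 0.962 and 0.992 in edgeR's quasi-likelihood test and exact permutation p of 0.0571 for each.

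*Ehd1*, an ATPase that shapes tubules of the recycling endosome, went the other way, at 56.3, 55.9, 53.4 and 59.4 CPM across the 4 *Neat1*-KO mice (replicates 1 to 4), compared with 59.3, 68.0 and 68.9 CPM across the 3 *Neat1*-WT mice (replicates 2 to 4). *Neat1*-KO replicate 4 lay just above *Neat1*-WT replicate 2, so the groups overlapped by this pair. The log2 fold change was -0.22 ± 0.081 (SE), with an adjusted p of 0.992 in edgeR's quasi-likelihood test. *Bbs1*, a subunit of the BBSome that carries cargo to cilia, was at 21.01 to 24.6 CPM in *Neat1*-KO and 24.8 to 25.9 CPM in *Neat1*-WT libraries, and its log2 fold change was -0.13 ± 0.088 (SE). *Klc2*, a light chain of kinesin and the most abundant member of this list, was at 392.1 to 481 and 392.8 to 433 CPM, with a log2 fold change of 0.10 ± 0.078 (SE). The largest change of the list was that of *Ccdc88b*, a Hook-related protein, at 4.42, 6.89, 3.99 and 6.75 CPM across the 4 *Neat1*-KO mice and 3.12, 3.18 and 5.20 CPM across the 3 *Neat1*-WT mice. Its libraries overlapped through *Neat1*-WT replicate 4, and the log2 fold change was 0.54 ± 0.251 (SE), with an adjusted p of 0.992 in edgeR's quasi-likelihood test. *Rab1b*, *Snx15*, *Vps51* and *Yif1a*, examples chosen after their values were seen, had log2 fold changes of 0.15, 0.05, 0.05 and -0.11, and their libraries overlapped.

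Of the 7 members for proteolysis and protein quality control, none passed the threshold and 3 were at an unadjusted p under 0.05 (4.64% of all tested genes). A log2 fold change above 0 was seen in 5 of them (51.8% of all tested genes), and the median was 0.117. *Ctsf*, the lysosomal protease cathepsin F, was at 68.0, 68.4, 61.4 and 62.9 CPM across the 4 *Neat1*-KO mice (replicates 1 to 4), compared with 53.7, 58.5 and 54.0 CPM across the 3 *Neat1*-WT mice (replicates 2 to 4), without overlap. *Dpp3*, a cytosolic dipeptidyl peptidase, was at 49.8, 46.1, 40.1 and 45.5 CPM and at 39.5, 36.6 and 40.3 CPM in the same order, and overlapped only through *Neat1*-KO replicate 3 and *Neat1*-WT replicate 4. Both had a log2 fold change of 0.23, with SE of 0.078 and 0.090, and adjusted p of 0.974 and 0.992 in edgeR's quasi-likelihood test. *Capn1*, the calcium-dependent protease calpain 1, was at 47.4 to 54.1 CPM in *Neat1*-KO and 55.4 to 57.7 CPM in *Neat1*-WT libraries, with a log2 fold change of -0.17 ± 0.077 (SE). Its antisense neighbour *Gm10814* had -0.10 ± 0.161.

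*Ccs* is the copper chaperone that loads copper into SOD1, the protein whose human mutant form all these mice carry. It lies 985.4 kb from *Neat1*, near the edge of the window, and was at 14.5, 15.6, 14.6 and 15.9 CPM across the 4 *Neat1*-KO mice (replicates 1 to 4), compared with 13.7, 14.6 and 11.8 CPM across the 3 *Neat1*-WT mice (replicates 2 to 4). The groups overlapped slightly, with *Neat1*-WT replicate 4 the lowest library. The log2 fold change was 0.18 ± 0.109 (SE), with an adjusted p of 0.992 in edgeR's quasi-likelihood test and an exact permutation p of 0.0571. *Peli3*, an E3 ubiquitin ligase of innate immune signalling, was at 61.8 to 70.7 and 60.7 to 63.2 CPM, with 0.12 ± 0.076 (SE) on the log2 scale.

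The 13 members for transcription and chromatin had a median log2 fold change of 0.104. Of them 2, *Ovol1* and *Fosl1*, were at an unadjusted p under 0.05 (4.64% of all tested genes), in opposite directions. *Rela*, the p65 subunit of NF-kappa B, was at 28.3 to 32.0 CPM in *Neat1*-KO and 24.4 to 33.9 CPM in *Neat1*-WT libraries, with 0.04 ± 0.110 (SE) on the log2 scale. *Kat5*, a histone acetyltransferase, and *Men1*, the scaffold protein menin, had 0.10 ± 0.084 and 0.12 ± 0.079 (SE). *Npas4*, an activity-induced transcription factor of neurons, was low, at 1.75 to 2.63 and 1.54 to 1.84 CPM, with 0.45 ± 0.237 (SE).

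The 6 members for splicing and RNA processing had a median of 0.093, with 0 at an unadjusted p under 0.05. *Sf3b2* and *Sf1*, which take part in recognizing the branch point, both stood at 0.10, with SE of 0.072 and 0.080. The 3 genes of DNA replication, repair and cell cycle, *Pola2*, *Rnaseh2c* and *Mus81*, were between 0.08 and 0.23, and *Mus81*, an endonuclease, was at 15.8 to 19.98 CPM in *Neat1*-KO and 14.7 to 15.8 CPM in *Neat1*-WT libraries, without overlap by a narrow margin. *Rnaseh2c*, a subunit of ribonuclease H2, had 0.11 ± 0.126 (SE). *Fau*, which encodes the ribosomal protein eS30 fused to a ubiquitin-like protein, was at 191, 161, 135 and 150 CPM across the 4 *Neat1*-KO mice (replicates 1 to 4), compared with 136, 150 and 120 CPM across the 3 *Neat1*-WT mice (replicates 2 to 4), with overlapping groups and 0.24 ± 0.111 (SE) on the log2 scale. *Mrpl49* and *Mrpl11*, of the mitochondrial ribosome, had 0.11 and -0.04.

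Among the 4 genes of the neuronal membrane and synapse, the median was -0.024 and 3 log2 fold changes were below 0. *Tmem151a*, a membrane protein of neurons, was at 293 to 348 CPM in *Neat1*-KO and 310 to 341 CPM in *Neat1*-WT libraries, with -0.03 ± 0.074 (SE). *Nrxn2*, a presynaptic adhesion protein, was at 277 to 332 and 299 to 315 CPM, with -0.02 ± 0.077 (SE), and *Cnih2*, an auxiliary subunit of AMPA receptors, had -0.03 ± 0.112 (SE). These libraries overlapped throughout.

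The remaining lists held 0 members at an unadjusted p under 0.05. For kinase and small GTPase signalling (8 members) the median was 0.044, and *Ppp2r5b*, a regulatory subunit of protein phosphatase 2A, was at 147 to 183 CPM in *Neat1*-KO and 156 to 161 CPM in *Neat1*-WT libraries. For metabolism and transport (6 members) it was 0.051, and *Pygm*, the glycogen phosphorylase of muscle and astrocytes, was at 142 to 147 and 140 to 149 CPM, with 0.01 ± 0.064 (SE). For the cytoskeleton, *Cfl1*, the actin-severing protein cofilin, was at 585 to 677 and 632 to 643 CPM, with -0.04 ± 0.068 (SE), and *Actn3* had 0.24 ± 0.301. For the extracellular matrix (3 members) the median was 0.008. The 16 members in no list, most of them antisense RNAs, had a median of 0.127, with *Gm37376* and *AC125059.3* at an unadjusted p under 0.05.

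**Figure D3:**
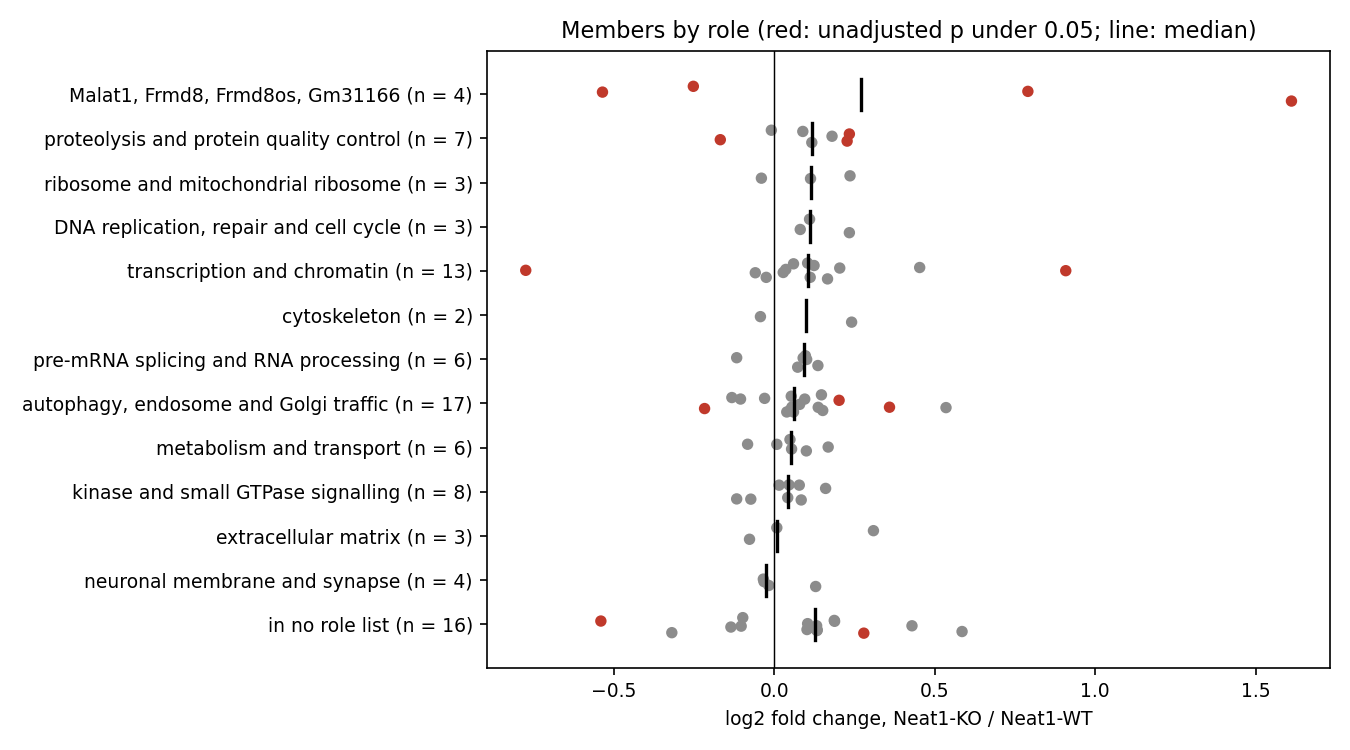
Log2 fold change (*Neat1*-KO over *Neat1*-WT) of the 92 members by role, each point a gene, red at an unadjusted p under 0.05, with a black line at the median of the list. Medians lie between -0.024 and 0.127 except for the 4 genes *Malat1*, *Frmd8*, *Frmd8os* and *Gm31166*, which spread from -0.54 to 1.61, and points are shifted vertically at random for legibility.

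Levels of the members covered a wide range. Per kb of exon, *Cfl1* was the highest at 220 CPM per kb over the mean of all 7 libraries, followed by *Fau* at 155 and *Klc2* at 104. *Tmem151a* and *Snx32* stood at 67.7 and 64.1, *Malat1* at 31.2 and *Frmd8os* at 8.91, while *Rin1*, at 0.184, was the lowest. The coefficient of variation within a genotype was at the median 9.76% among *Neat1*-KO and 7.96% among *Neat1*-WT libraries. Members at an unadjusted p under 0.05 lay between *Ovol1* at 0.806 and *Gm37376* at 53.8 CPM per kb.

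Distance, side and strand were compared by the same counts. Within 100 kb of *Neat1*, 4 of 15 members were at an unadjusted p under 0.05, 1 higher and 3 lower, namely *Frmd8os*, *Frmd8*, *Malat1* and *Gm37376*. From 100 to 250 kb 2 of 16 were, from 250 to 500 kb 5 of 29, and from 500 kb to 1 Mb 3 of 32, all higher. These are shares of 26.7%, 12.5%, 17.2% and 9.38% from the nearest bin outward. Of all tested genes, 4.64% were at that p (2.24% higher, 2.4% lower). *Gm37376* lies wholly inside the exon of *Malat1* on the opposite strand and followed its level. Both are counted in the nearest bin, and whether they are separate signals was not tested. The median log2 fold change in these bins was 0.053, 0.078, 0.089 and 0.109, so that it was not largest close to *Neat1*. It was 0.104 in the 57 members at lower coordinates and 0.060 in the 35 at higher coordinates, and 0.089 in the 47 members on the strand of *Neat1* and 0.078 in the 45 on the opposite strand. Quartiles of these groups overlapped, and no test of the difference was made.

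Beyond the window, 152 tested genes of chromosome 19 at 1 to 5 Mb from *Neat1* had a median log2 fold change of 0.041, with 65.1% above 0, 6.58% at an unadjusted p under 0.05 and 7.89% without overlap. At over 5 Mb the 359 tested genes had a median of 0.003, with 51.5% above 0, 4.46% at an unadjusted p under 0.05 and 6.41% without overlap. The members' 0.086, 71.7%, 15.2% and 15.2% were the highest of the 3 regions on each measure.

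The small shift upward was carried unevenly by the libraries. Taking for each member the log2 deviation of a library from the mean of all 7, the median over the members was 0.074, 0.105, -0.078 and 0.031 in *Neat1*-KO replicates 1 to 4 and -0.065, 0.030 and -0.069 in *Neat1*-WT replicates 2 to 4. *Neat1*-KO replicate 3 lay below all the others and *Neat1*-WT replicate 3 level with *Neat1*-KO replicate 4, so the genotypes overlapped on this measure. *Neat1*-KO replicate 3 was the lowest *Neat1*-KO library for 58 of 92 members, or 63.0%, against 27.9% of all tested genes, while replicates 1 and 2 were the highest for 38.0% and 40.2% of members, against 31.2% and 22.9% of all tested genes. The same median over all tested genes was between -0.003 and 0.006 in every library. Summed over the members, the libraries held 5086 to 5694 CPM in *Neat1*-KO and 5331 to 5513 CPM in *Neat1*-WT.

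**Figure D4:**
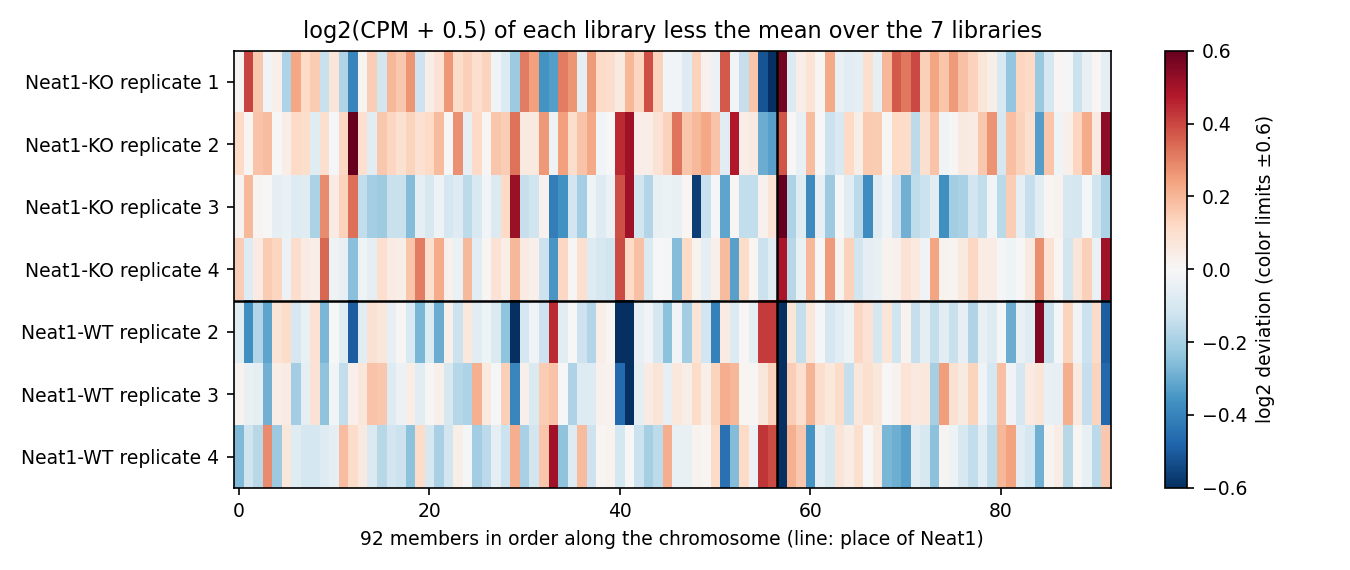
Deviation of log2(CPM + 0.5) in each library from the mean of the 7 libraries, for the 92 members in order along the chromosome, with *Neat1*-KO above and *Neat1*-WT below the horizontal line. Colors stop at 0.6 in either direction, the vertical line marks the place of *Neat1* between *Gm37376* and *Frmd8os*, and *Neat1*-KO replicates 1 and 2 are mostly red while replicate 3 is mostly blue.

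The members also differ from other genes in base composition. GC content of the longest transcript had a median of 56.4% in the members and 49.8% in all tested genes, and the log2 fold change over all tested genes went up with GC content, with medians of -0.06, -0.018, 0.01, 0.033 and 0.057 over 5 groups of equal size from the lowest to the highest GC. The group highest in GC held 51 members, with a median of 0.11 against 0.055 for the other genes there, and the group lowest in GC held *Malat1* and *Gm37376*. With the median of each gene's GC group subtracted, an alternative chosen after the data were seen, the members' median was 0.05, and 54 of 92, or 58.7%, were above the median of their group, against 54.6% at 1 to 5 Mb and 54.0% beyond. The excess of small positive values was smaller on this scale. The part of GC content in the differences of single genes was not tested.

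**Figure D5:**
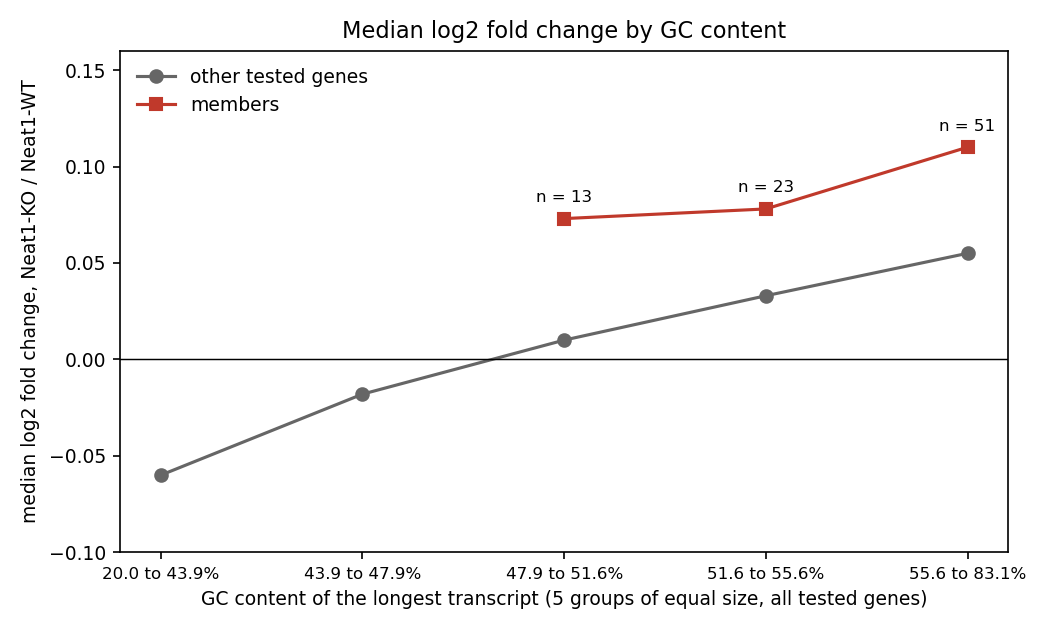
Median log2 fold change (*Neat1*-KO over *Neat1*-WT) over 5 groups of transcript GC content, for the members (red squares, groups with at least 10 members, n beside each point) and the other tested genes (grey circles). Both go up with GC content, and the members lie above the other genes in the 3 groups shown.

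Promoter sequence was examined because members on both sides of 0 lie within a short stretch. The RefSeq promoter table for GRCm38.p6 held 77 entries for 63 members, and the 250 bases before each start were searched on both strands for 5 motifs, none of which contains another. The GC box, with the letters GGGCGG, was in 66.2% of the member entries and 32.7% of all 32851 entries in the table. The CCAAT box, searched as the letters CCAAT, was in 41.6% of the member entries and 33.8% of all entries. For the TATA box, searched as the letters TATAAA, these shares were 2.6% and 12.4%. They were 5.19% and 6.02% for the E-box, whose letters are CACGTG on either strand. A repeat of TG, searched as the letters TGTGTGTG, was in 2.6% and 3.55%. The entries of the whole table were not limited to genes expressed in the cord and were not matched to the members in GC content. Shares are per entry, so a gene with several entries counts with each of them. Whether these shares are particular to genes near *Neat1* was not tested. Of the members at an unadjusted p under 0.05, 7 had an entry. *Dpp3* was left out by name, apart from the rule on exons. The 2 windows shown hold no annotated exon and are given 5' to 3' on the strand of the gene, with motif matches in capitals. *Malat1* (chr19:5802673-5802922, minus strand) was lower in *Neat1*-KO, and *Atg2a* (chr19:6241418-6241667, plus strand) was higher.
*Malat1*: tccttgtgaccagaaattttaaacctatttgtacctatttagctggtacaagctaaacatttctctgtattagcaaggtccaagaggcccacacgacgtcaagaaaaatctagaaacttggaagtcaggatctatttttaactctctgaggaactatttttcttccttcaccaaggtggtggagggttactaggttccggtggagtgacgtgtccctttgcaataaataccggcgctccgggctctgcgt
*Atg2a*: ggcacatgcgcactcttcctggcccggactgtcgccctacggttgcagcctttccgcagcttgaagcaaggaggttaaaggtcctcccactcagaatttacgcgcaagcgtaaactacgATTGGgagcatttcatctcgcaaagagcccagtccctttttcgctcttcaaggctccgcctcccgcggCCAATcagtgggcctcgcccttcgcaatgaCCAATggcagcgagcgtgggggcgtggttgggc

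The 2 windows differ in composition. That of *Malat1* has 44.0% GC with 8 CpG dinucleotides and no match to these letters. That of *Atg2a* has 59.6% GC, 19 CpG dinucleotides and 3 CCAAT boxes. A match is a description of letters and says nothing of binding in these cords.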

How the data were processed

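Poly(A) RNA of cervical spinal cord was made into directional libraries by the authors, read from both ends on a NovaSeq, trimmed (Trimmomatic 0.38), aligned (HISAT2 2.1.0) and counted per gene (featureCounts 1.6.3), with mm10 named in the submitters' processing notes. They deposited raw counts per gene, with no normalization, and all 7 columns were used. Checked on the counts, the strand was used and reads shared by genes on the same strand were left out, which lowers or empties such genes. Positions came from GENCODE M21, which places 55227 of 55487 genes.

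Counts were filtered by filterByExpr, scaled by TMM and tested with edgeR 4.0.16 (quasi-likelihood F-test, Benjamini-Hochberg adjustment over 18449 genes, no covariate, R 4.3.3). DESeq2 1.42.0 and limma 3.58.1 were alternatives. The biological coefficient of variation was 0.128. Each SE was derived from the edgeR test, as the absolute log2 fold change divided by the square root of its F statistic. Single genes were also tested by exact two-sided permutation of mean log2(CPM + 0.5) over 35 splits. Genes were named by rule: *Neat1*, 5 marker genes of the window, the 4 nearest members on each side, all members at an unadjusted p under 0.05, *Ccs*, and the most abundant member of each role list. Other members named are examples of their lists, chosen after their values were seen. Some items are not reported here. The members and lists were chosen with earlier results of these data known, so no count of a list is independent evidence. The tests were tested on simulated data. The changes simulated were larger than those of most members, so nothing is concluded from them for differences of the members' size. The p-values of the fits set each difference against the spread between these libraries, and the permutation p ranks the split by genotype among the 35.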

Additional observations from a re-analysis of the deposited data

How the results depend on the processing

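The count of members past the threshold, 1, was 3 without a filter on low counts (*Frmd8os*, *Gm31166*, *Ovol1*), 2 in DESeq2 (*Frmd8os*, *Gm31166*) and 0 with *Xist* as a covariate, where *Frmd8os* had an adjusted p of 0.104 in edgeR. Over all genes these settings called 124, 27 and 4, against 6. It ranged from 0 to 1 over the libraries left out in turn, 0 being without *Neat1*-WT replicate 3. With *Xist* as a covariate, members at an unadjusted p under 0.05 numbered 7 (5 higher, 2 lower), in place of 14. The share of all genes was not counted for that fit, so the 7 cannot be read against a background. *Xist* was at most 0.161 CPM in any library, so this covariate rests on very few reads and cannot adjust for sex. No conclusion on the members is drawn from it. A window of 0.5 Mb held 60 members, 11 of them at an unadjusted p under 0.05 and 5 of those higher (4.64% and 2.24% of all genes). Leaving out a library gave 10 to 24 members at an unadjusted p under 0.05, 5 to 19 higher, and 14 to 33 without overlap. The upper ends came without *Neat1*-KO replicate 3, where the shares of all genes rose too. They were 7.78%, 3.55% and 14.4%, against 4.64%, 2.24% and 5.47% with all libraries.

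The replicate numbers do not pair the samples (correlations of -0.238, -0.162 and -0.012 between same-numbered libraries). With a replicate block 39 genes were called in all, among them *Frmd8os*, in place of 6, the members' median was 0.049, and *Rnaseh2c* was at -0.018. Over all alternatives the median stayed positive, between 0.034 and 0.131. The lower end came with *Xist* as a covariate, and the next lowest was 0.048, without *Neat1*-KO replicate 1.

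Of 29 named genes, 24 kept their sign under 15 settings, the fit with *Xist* among them. Small values turned for *Tigd3* (-0.12 to 0.21 over the libraries left out), *Rnaseh2c* (-0.074 with *Xist*, -0.022 to 0.18 over the libraries left out), *Ltbp3* (0.001 with *Xist*), *Pygm* (-0.015 to 0.031 over the libraries left out) and *Tmem151a* (-0.073 to 0.011 likewise). The causes were not tested. Filters, tests, the block and the covariate leave library values as they are and give no count of overlap. With 3 and 4 libraries, differences the size of the members' median are close to or below the SE of single genes.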

Other observations

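Some genes of the window are missing from the members because their exons lie on those of a neighbour on the same strand. *B4gat1*, with 85.3% of its exon bases shared in this way, had at most 2 counts in any library, *Brms1* (79.0%) at most 3, and *Fam89b* (99.1%) 0. These values follow the counting and say nothing about expression.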
